A study of Mus musculus with 6 samples.

Results

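The genes described here are 34 genes of NRF2 signalling and thiol-based antioxidant defence, measured in mouse colon, in control and Setd2 KO samples. They were chosen by name, with earlier results of these data known. They cover the NRF2 pathway and the enzymes that make, recycle or use glutathione, thioredoxin and NADPH, with catalase, superoxide dismutases and metallothioneins. Each was represented by its brightest probe over the 6 arrays. The platform annotation named at least 1 probe for 30 of them. Gsr, Prdx5, Prdx6 and G6pdx had none and were not analysed here. Pgd lay below the filter on dim probes, which left 29 genes among the 18918 features tested. The study compared whole colon tissue of 3 control samples with that of 3 Setd2 KO samples, all from mice on a C57BL/6 background at 6 weeks of age. Setd2 encodes the enzyme that places the trimethyl mark on lysine 36 of histone H3. The labels give neither the allele, nor the cells in which the gene was deleted, nor the genotype of the controls beyond that word. They number the samples but do not say that these came from separate animals, and the p-values therefore speak only for the spread among the 6 samples. Because colon wall is a mixture of cells, fewer cells of a type and less RNA per cell cannot be told apart in any value given here.

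NRF2, the product of Nfe2l2, is a transcription factor that KEAP1 marks for degradation while the cell is unstressed. Oxidants and electrophiles modify cysteines of KEAP1, NRF2 then accumulates, pairs with a small MAF protein and binds antioxidant response elements near genes for glutathione synthesis, quinone reduction and NADPH supply. Peroxides are removed by peroxiredoxins, which are recharged by thioredoxin, and by glutathione peroxidases, which draw on glutathione, while both systems are ultimately recharged by NADPH. In the colon this machinery faces the products of the gut flora, and GPX2 is the glutathione peroxidase characteristic of the gut epithelium.

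The core of the antioxidant response element, TGACNNNGC, is shown first where it occurs in these genes' promoters, because it is the element that NRF2 binds. It was sought on both strands of RefSeq's promoter windows (GRCm38.p6), which run from 250 bases before to 50 bases after a gene's start, 300 bases in all. Windows were given for 29 of the 34 genes, and 9 of these held the core, or 31.0%, against 14.0% of all 27025 genes with a window. Each match below is given with up to 20 bases on either side, 5′ to 3′ along the gene's own strand, with the core in capitals. Capitals that begin with GC are the core read on the opposite strand. The 7 genes are those that were also measured.
Nfe2l2: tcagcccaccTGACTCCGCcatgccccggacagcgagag
Srxn1: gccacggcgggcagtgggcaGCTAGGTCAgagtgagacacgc
Gclm: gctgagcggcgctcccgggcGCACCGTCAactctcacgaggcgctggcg
Txnrd1: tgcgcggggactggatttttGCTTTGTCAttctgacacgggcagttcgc
Prdx1: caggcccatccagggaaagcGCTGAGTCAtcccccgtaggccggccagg
Sod1: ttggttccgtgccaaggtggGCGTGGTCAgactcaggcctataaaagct
Mt2: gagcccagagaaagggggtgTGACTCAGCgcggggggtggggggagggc
These stretches lie at chr2:75704875-75704913 (minus strand) for Nfe2l2, chr2:152105532-152105573 (plus) for Srxn1, chr3:122245403-122245451 (plus) for Gclm and chr10:82859094-82859142 (plus) for Txnrd1. Those of Prdx1, Sod1 and Mt2, all on the plus strand, lie at chr4:116685446-116685494, chr16:90220686-90220734 and chr8:94172519-94172567. With the start base counted as 0, the core begins at -240 in Nfe2l2, -134 in Gclm, -133 in Prdx1, -92 in Txnrd1, -79 in Mt2 and -56 in Sod1, and at 28, within the transcript, in Srxn1. In Prdx1 and Mt2 it overlaps the AP-1 site TGACTCA, which was found in 4 of the 29 members and in 5.95% of all genes. G6pdx and Pgd also held the core but were not tested. The window of Nqo1, a textbook NRF2 target, held none, which says only that these letters are not in this window.

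No member differed between KO and control beyond the spread between samples. In limma, a linear model fitted across all features, 0 of 29 members had an adjusted p under 0.05, as did 0% of all features. At an unadjusted p under 0.05 there were 0 members, against 4.3% of all features. For none of the 29, each by its brightest probe, did the 3 KO arrays lie wholly above or below the 3 control arrays, where 8.68% of all features separated in this way. Limma's adjusted p of the members lay between 0.940 and 0.987, and the smallest unadjusted p was 0.0990 (Mt2). The mean was higher in KO for 20 members and lower for 9, while 44.6% of all features were higher in KO. The median log2 difference, KO minus control, was 0.17 for the members and -0.09 for all features. The 6 members whose means differed by over 1 log2 unit were Nqo1, Prdx3, Mt2, Cat, Gpx1 and Hmox1, all with the higher mean in KO.

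All 6 of these differences were smaller without 1 array, control 2. Without it no member differed by over 1, 25 of 29 lay within 0.5 of 0, and the range narrowed from between -0.55 and 2.49 to between -0.28 and 0.77. The mean was then higher in KO for 22 of 29 members against 49.9% of all features, and the median was 0.12 for the members and -0.00087 for all features. Control 2 lay over 1 log2 unit below all 5 other arrays for 6 members, namely Nfe2l2, Nqo1, Prdx2, Prdx3, Gpx1 and Mt2, and over 1 above them for 0. Over all features it was that far below the others for 13.1% and that far above for 12.2%, whereas the other arrays were isolated so far in either direction for 0.655% to 2.26%.

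**Figure D1:**
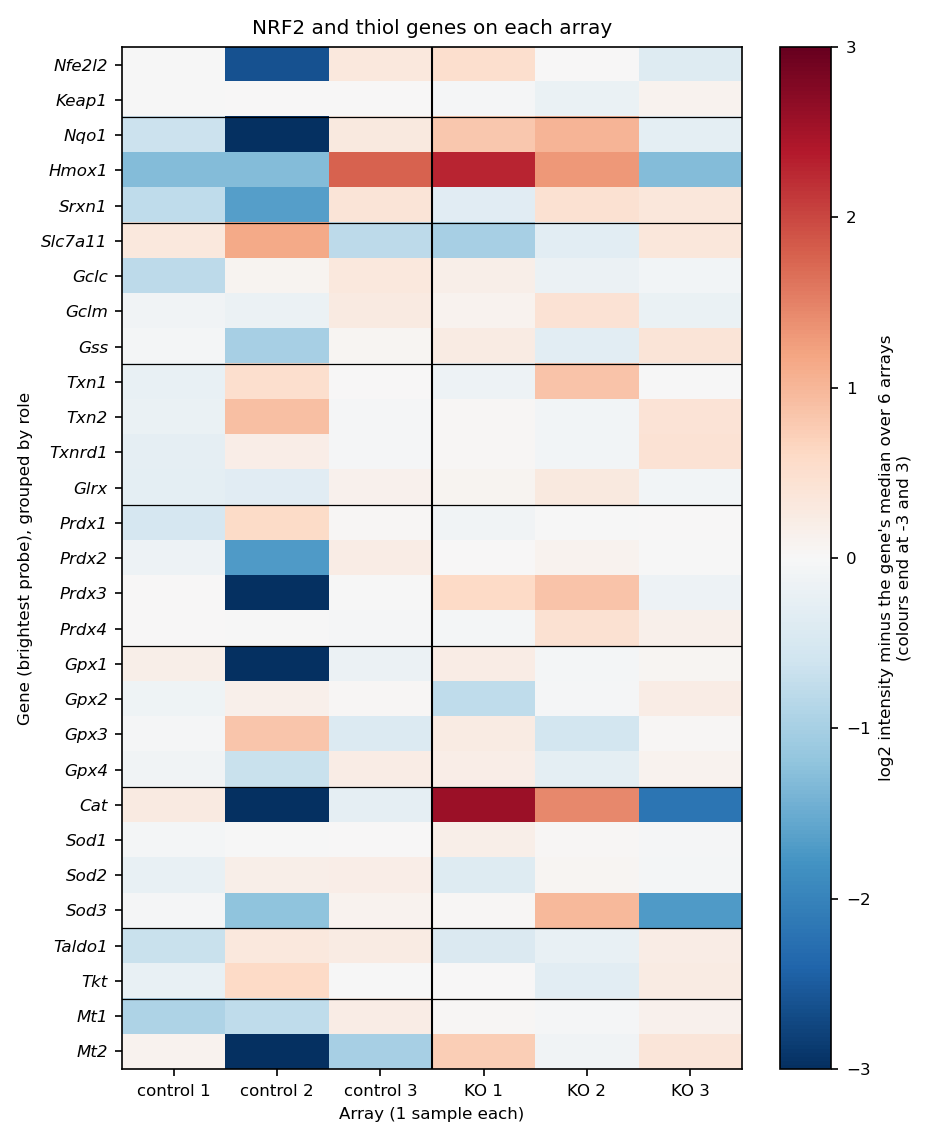
Heat map of 29 genes (rows, grouped by role) on the 6 arrays (columns), coloured by log2 intensity minus the gene's median over the arrays, from -3 in blue to 3 in red. The control 2 column holds the darkest blue cells, among them Nfe2l2, Nqo1, Prdx3, Gpx1, Cat and Mt2, and KO 1 the darkest red one, Cat.

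The values are the authors' deposited normalized intensities on a log2 scale, in which the lowest possible value is 0, the deposited floor of 1. The arrays share 1 median and 1 maximum, so a shift of most genes cannot be seen. The share of probes at the floor was 33.5% to 36.9% on 5 arrays and 41.6% on control 2. Control 2 correlated with the other arrays at r = 0.80 to 0.82 over all features, which share their normalization. As a check of the labels, the brightest Setd2 probe read 374, 600 and 329 in control and 201, 119 and 146 in KO (intensity), so that KO averaged 35.7% of control. Where that probe lies relative to the deleted part is not known. Its log2 difference was -1.47 (limma unadjusted p = 0.0141, adjusted p = 0.786), and -1.21 without control 2. The targeted gene itself thus did not pass the adjusted threshold by which the members were judged. On dimmer Setd2 probes KO averaged 47.4% and 62.8% of control. The first of these was at the floor on control 2, against intensities of 38.0 and 31.2 on control 1 and control 3. The second was near the floor, at 3.66 to 9.53 over all arrays.

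Whether control 2 differs gene by gene or probe by probe could be read from genes with more than 1 probe. Among 1301 genes whose brightest 2 probes both averaged over an intensity of 64, the deviations of those 2 probes from the other arrays differed by over 1 log2 unit for 45.8% of genes on control 2, and for 1.31% to 3.23% on each of the other 5 arrays. Of the 6 members among these genes, 3 passed that gap on control 2, namely Srxn1 (2.20), Prdx2 (1.95) and Gpx4 (1.01). A gap of 1.01 was seen for Srxn1 on KO 2, and no other array gave such a gap in a member. The median gap over the 1301 genes was 0.86 on control 2 and 0.20 to 0.24 elsewhere.

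**Figure D2:**
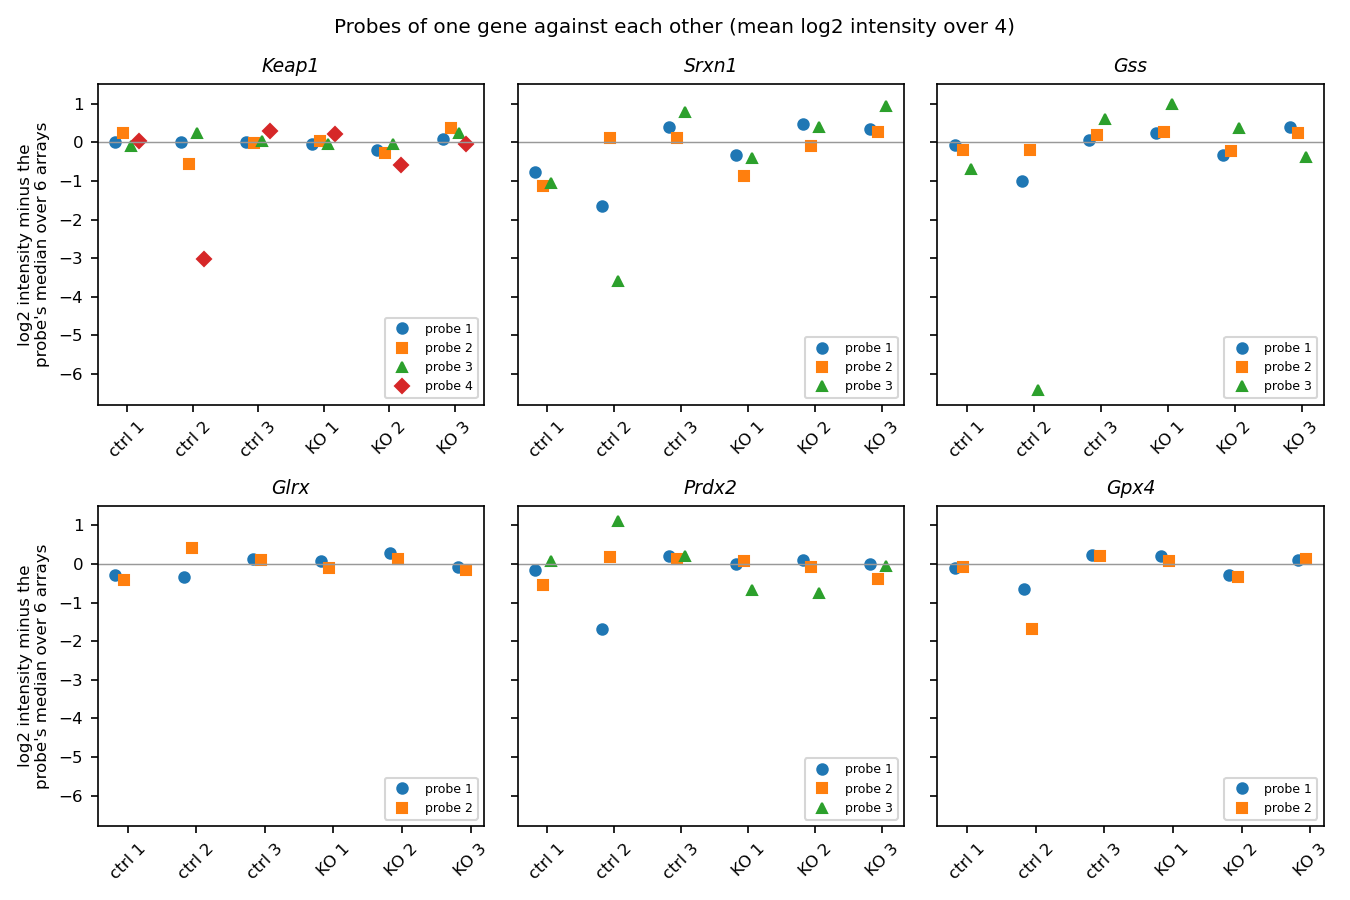
Log2 intensity minus the probe's own median over the 6 arrays, for every probe with a mean log2 value over 4 of 6 genes, with the arrays along the horizontal axis. On control 2 the probes of one gene spread apart, down to the floor for one probe of Gss, while they lie closer together on most other arrays.

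That the tissue is colon is taken from the labels, and marker genes show what the samples held. All 12 epithelial markers were measured, among them Lgals4, Krt8 and Vil1, and their mean log2 level was 10.64 to 11.17 in control and 10.88 to 11.11 in KO. Of 12 absorptive colonocyte markers, 11 were measured, and all 11 had the higher mean in KO, as did 44.6% of all features. Taken singly, 0 of the 11 had groups that did not overlap. At limma's unadjusted p under 0.05 there were 0, and the smallest unadjusted p was 0.0553. The mean log2 level of these markers by array was 9.95, 8.71 and 10.31 in control and 11.13, 11.01 and 10.41 in KO. These averages did not overlap between the groups, with control 3 and KO 3 the closest. Their summed intensity was 25457 to 50222 in control and 47150 to 58915 in KO, and Slc26a2 was at the floor on control 2. The 29 members averaged 8.26, 7.58 and 8.57 in control and 8.70, 8.69 and 8.39 in KO, with control 2 the lowest in both lists. The part of colonocyte content in the members' values was not tested.

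Markers of other organs were present in unequal amounts. The 8 pancreatic enzyme genes measured, of 10 listed, summed to an intensity of 639 to 65517 in control and 570 to 21163 in KO. They were lowest on control 3 and KO 3, where Cela2a was at the floor, and highest on control 1. Small intestinal markers, 10 of 12 measured, averaged 8.39 on KO 1 and 4.20 to 6.34 on the other arrays, with summed intensities of 1605 to 3294 in control and 1498 to 10645 in KO. Apoa1, Apoa4, Anpep, Sis, Apob and Lct were each highest on KO 1, while Lyz1, Slc5a1, Fabp6 and Alpi were highest on a control array. Fabp2, below the filter, was at the floor on all 6 arrays. Macrophage markers, 8 of 10 measured, averaged 3.66 on control 2 and 5.37 to 6.63 elsewhere, and Lyz2 was at the floor on control 2. T and NK cell markers, 9 of 13 measured, averaged 5.77, 5.22 and 5.32 in control and 4.93, 4.93 and 4.97 in KO, so that the groups did not overlap. Of these 9, 7 had the lower mean in KO. For 3 of them (Cd3d, Itgae and Nkg7) the groups did not overlap, where 5.31% of all features were lower in that way. At limma's unadjusted p under 0.05, 3 were lower, against 2.64% of all features, and 0 passed the adjusted threshold. Their summed intensity was 1745 to 2107 in control and 1668 to 2022 in KO, and their part in the members' values was not tested. Groups also did not overlap for 3 of 11 smooth muscle markers, higher in KO (3.38% of all features), and 2 of 9 goblet cell markers, lower in KO. Of 12 immediate early and stress genes, 11 were measured, 3 higher and 8 lower, with 1 lower without overlap. Their mean log2 level was 7.58 to 7.86 in control and 7.14 to 7.67 in KO. Their summed intensity was 3698 to 4412 in control and 3005 to 3280 in KO, and their part in the members' values was not tested.

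The pathway's sensor and its transcription factor come first. Keap1, the NRF2 inhibitor, had log2 values of 9.36, 9.36 and 9.37 in control and 9.33, 9.16 and 9.46 in KO. The control values fell inside the KO range, and the log2 difference was -0.05 (95% interval -0.90 to 0.81). This was the smallest difference of any member, although the interval, in which limma's shared variance widens the gene's own, reaches from -0.90 to 0.81. The other Keap1 probes above the filter differed by 0.16, -0.02, 0.77 and -0.92. The probe at 0.77 read 4.66 on control 2 and 7.12 to 7.91 in KO, and the one at -0.92 was near the floor.

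Nfe2l2 itself measured 4.87, 2.27 and 5.20 in control and 5.38, 4.90 and 4.51 in KO. Apart from control 2, the samples of both groups overlapped. The log2 difference of 0.82 (95% interval -1.17 to 2.82) became -0.10 without control 2. A second, dimmer Nfe2l2 probe differed by 0.09.

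The classical NRF2 targets are Nqo1, a quinone reductase, Hmox1, which breaks down haem, and Srxn1, the sulfiredoxin that rescues over-oxidized peroxiredoxins. Nqo1 measured 4.94 and 5.89 on control 1 and control 3, lay at the floor on control 2, and measured 6.41, 6.61 and 5.28 in KO. KO 1 and KO 2 lay above all control arrays, while KO 3 lay between control 1 and control 3. The difference of 2.49 (95% interval -1.14 to 6.12) rests on the floor value, and without control 2 it was 0.68.

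Hmox1 had floor values on control 1, control 2 and KO 3 and measured 3.07 on control 3, 3.59 on KO 1 and 2.59 on KO 2. Its presence above the floor did not follow genotype. The difference of 1.04 (95% interval -1.87 to 3.95) ranged from 0.27 without KO 1 to 2.07 without KO 3, and without control 2 it was 0.53.

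Srxn1, measured well above the floor, gave 8.72, 7.83 and 9.88 in control and 9.15, 9.95 and 9.82 in KO. Control 3 lay inside the KO range and the other control arrays below it. The difference was 0.83 (95% interval -0.65 to 2.30), and 0.34 without control 2. Its next brightest probe differed by 0.06 and a dimmer one by 1.59, where control 2 stood at 1.68 against 4.23 and 6.06.

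**Figure D3:**
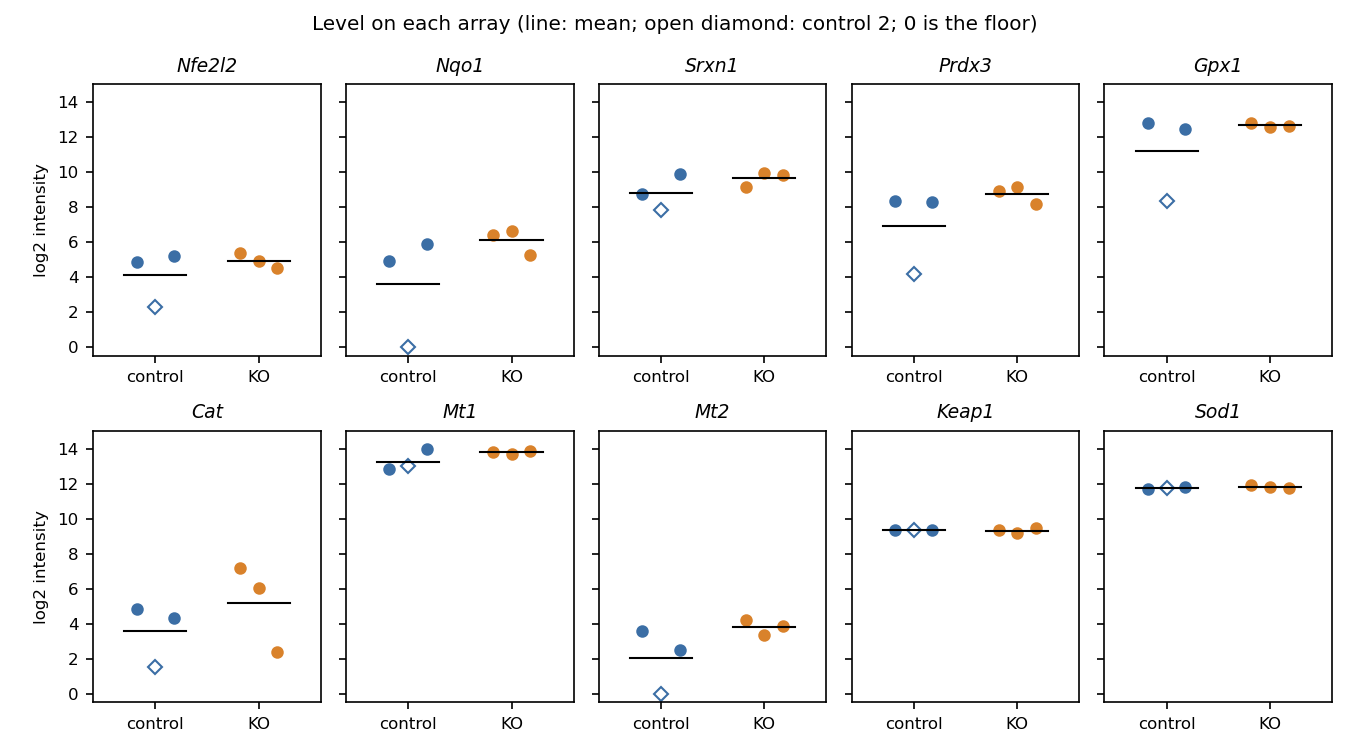
Log2 intensity of 10 genes on each array, control in blue and KO in orange, with the group mean as a line and control 2 as an open diamond. For Nqo1, Prdx3, Gpx1 and Mt2 the control mean is pulled down by the diamond, whereas for Keap1 and Sod1 all 6 points lie within 0.3 of each other.

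Glutathione is built from cysteine, which enters as cystine through SLC7A11, through glutamate-cysteine ligase (the catalytic subunit GCLC and the modifier GCLM) and glutathione synthetase (GSS). Gclm, the modifier subunit and a common readout of NRF2, measured 7.22, 7.13 and 7.58 in control and 7.41, 7.75 and 7.13 in KO. The groups shared nearly the same range. Its difference of 0.12 (95% interval -0.82 to 1.06) was 0.03 without control 2.

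Gclc, with 1 probe close to the floor, measured 2.09, 2.95 and 3.20 in control and 3.06, 2.70 and 2.80 in KO, a difference of 0.11 (95% interval -0.97 to 1.18). Slc7a11 measured 3.93, 4.77 and 2.85 in control and 2.63, 3.31 and 3.97 in KO. It had the most negative difference of the members, -0.55 (95% interval -2.07 to 0.98), which was -0.09 without control 2, where this probe was highest. Its other 3 probes above the filter, all dim, differed by -1.42, -0.25 and 0.54. On the first of these, nearly as bright as the chosen probe, the groups did not overlap, at 3.77, 5.49 and 3.24 in control and 3.05, 2.18 and 3.03 in KO. On the chosen probes of both ligase subunits and the cystine transporter they overlapped.

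Gss measured 8.50, 7.56 and 8.64 in control and 8.83, 8.25 and 8.96 in KO. KO 1 and KO 3 lay above every control array and KO 2 below 2 of them. The difference was 0.44 (95% interval -0.69 to 1.57) and 0.11 without control 2. The probes of Gss also differed from each other on control 2: one read 7.58 there, level with the 7.58 of control 1, while another was at the floor against 5.74 and 7.01 on the other control arrays. The 3 dimmer probes of Gss were all higher in KO on average.

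The thioredoxin system carries electrons from NADPH through thioredoxin reductase to thioredoxin and on to peroxiredoxins. Txnrd1, the cytosolic reductase and a selenoprotein, measured 5.43, 5.91 and 5.67 in control and 5.74, 5.62 and 6.15 in KO, a difference of 0.17 (95% interval -0.76 to 1.10). Txn1, cytosolic thioredoxin, measured 8.63, 9.36 and 8.87 against 8.71, 9.72 and 8.84, and differed by 0.13 (95% interval -0.97 to 1.24). Txn2, its mitochondrial counterpart, measured 7.86, 8.95 and 8.01 in control and 8.08, 7.97 and 8.45 in KO and differed by -0.10, or 0.24 without that array. Glrx, a glutaredoxin that reduces glutathione-bound protein thiols, measured 10.81, 10.76 and 11.22 in control and 11.18, 11.38 and 11.02 in KO, and differed by 0.26 (95% interval -0.64 to 1.17). The 4 differences lay within 0.3 of 0, and the groups overlapped for each. Of further probes, that of Glrx differed by -0.08 and those of Txn1, near the floor, by 0.67 and -0.18.

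Of the peroxiredoxins, which destroy hydrogen peroxide with a reactive cysteine, 4 were measured. Prdx1, cytosolic, measured 11.88, 12.96 and 12.44 in control and 12.29, 12.38 and 12.40 in KO. The KO arrays lay inside the control range, and the difference was -0.07 (95% interval -1.09 to 0.96), with a dim second probe at -0.73. Prdx4, of the endoplasmic reticulum, measured 10.09, 10.07 and 10.04 in control and 10.02, 10.53 and 10.24 in KO, a difference of 0.20 (95% interval -0.69 to 1.08). Its control arrays were nearly equal, control 2 included.

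Prdx2 and Prdx3 were the peroxiredoxins that were low on control 2. Prdx2, cytosolic, measured 11.37, 9.83 and 11.73 in control and 11.53, 11.64 and 11.51 in KO. The difference of 0.58 (95% interval -0.81 to 1.97) fell to 0.01 without control 2. Its other probes, both dimmer, differed by -0.05 and -0.96, and both were highest on control 2. On the dimmest, which read 4.57, 5.63 and 4.71 in control and 3.83, 3.75 and 4.44 in KO, the groups did not overlap, against the direction of the brightest probe. Prdx3, the mitochondrial form, has 1 probe, which measured 8.32, 4.15 and 8.30 in control and 8.92, 9.17 and 8.16 in KO. KO 1 and KO 2 lay above the control arrays and KO 3 just below control 1 and control 3. The difference of 1.82 (95% interval -0.98 to 4.63) was 0.44 without control 2.

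The glutathione peroxidases measured here are selenoproteins with different places of work. Gpx1, the widespread cytosolic form, measured 12.77, 8.33 and 12.43 in control and 12.83, 12.56 and 12.65 in KO. The 5 arrays other than control 2 lay between 12.43 and 12.83. The means were 11.18 ± 2.47 in control and 12.68 ± 0.14 in KO (SD over 3 arrays each), the interval of the difference was -1.32 to 4.32, and without control 2 the difference was 0.08.

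Gpx2, the gut epithelial form, measured 13.36, 13.63 and 13.51 in control and 12.72, 13.45 and 13.69 in KO. KO 1 was the lowest array and KO 3 the highest. The difference was -0.21 (95% interval -1.23 to 0.80), and 0.07 without KO 1, the array with the highest level of small intestinal markers. The part of those markers' tissue in that value was not tested. Gpx3, the secreted form, measured 9.25, 10.11 and 8.87 against 9.51, 8.73 and 9.30, a difference of -0.23 that was 0.12 without control 2. Gpx4, which reduces lipid peroxides in membranes, measured 11.28, 10.72 and 11.61 in control and 11.58, 11.10 and 11.48 in KO. It differed by 0.18 (95% interval -0.83 to 1.19), or -0.06 without control 2, its next probe by 0.48, and another, at the filter's edge, by 1.17.

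Superoxide is turned into hydrogen peroxide by superoxide dismutases, and catalase splits that peroxide in peroxisomes. Sod1, the cytosolic copper-zinc enzyme, was among the steadiest members, at 11.70, 11.75 and 11.78 in control and 11.93, 11.80 and 11.74 in KO. The difference was 0.08 (95% interval -0.77 to 0.93), and a dim second probe, at the floor on control 2, differed by 1.23. Sod2, the mitochondrial manganese enzyme, measured 10.69, 11.07 and 11.10 against 10.52, 10.96 and 10.85, a difference of -0.17 (95% interval -1.09 to 0.74). Sod3, the extracellular form, was dim, at 2.61, 1.44 and 2.76 in control and 2.67, 3.61 and 0.93 in KO, and differed by 0.14 with all arrays, -0.28 without control 2 and 0.87 without KO 3.

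Cat varied more between samples of 1 genotype than between genotypes. Its brighter probe measured 4.85, 1.54 and 4.33 in control and 7.16, 6.02 and 2.41 in KO. KO 1 and KO 2 were the highest arrays, while KO 3 was lower than control 1 and control 3. The difference of 1.62 (95% interval -1.81 to 5.06) moved to 0.61 when control 2 was left out, to 0.64 when KO 1 was, and to 3.02 when KO 3 was. The second probe, at 3.57, 6.13 and 4.17 in control and 4.32, 4.36 and 2.53 in KO, differed by -0.88, and on control 2 the probes went opposite ways. KO 1 was also the array with the highest small intestinal markers, and their part in the Cat value was not tested.

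NADPH for both thiol systems comes largely from the pentose phosphate pathway. Taldo1 (transaldolase) measured 11.94, 12.94 and 12.85 in control and 12.19, 12.40 and 12.83 in KO, a difference of -0.10 (95% interval -1.19 to 0.99). Tkt (transketolase) measured 10.68, 11.50 and 10.88 against 10.92, 10.58 and 11.13, a difference of -0.14 (95% interval -1.15 to 0.87), with dim further probes at -1.39 and 1.52. Both enzymes act in the sugar-rearranging branch. Of the NADPH-producing branch, the 1 Pgd probe read 0.79 and 1.61 on control 1 and control 2 and 0.17 on KO 1, with the other 3 arrays at the floor, so it gives no fold.

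Metallothioneins are small cysteine-rich proteins that bind zinc and copper and respond to metals, glucocorticoids and oxidants. Mt1 measured 12.81, 12.99 and 13.97 in control and 13.79, 13.71 and 13.88 in KO. The KO arrays lay close together, above control 1 and control 2 but below control 3. The difference was 0.54 (SE 0.45, 95% interval -0.55 to 1.62), equal to 1.45-fold, and it ranged from 0.31 without control 1 to 0.89 without control 3. It depended less on control 2 than the larger differences did, at 0.40 without it.

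Mt2, whose promoter stretch is printed above, was dim on its 1 probe, at 3.59 and 2.49 on control 1 and control 3, at the floor on control 2, and at 4.22, 3.36 and 3.84 in KO. KO 1 and KO 3 lay above every control array, while KO 2 lay below control 1. The difference of 1.78 (SE 0.92) was 0.77 without control 2, where it was the largest of the 29, followed by Nqo1 at 0.68.

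**Figure D4:**
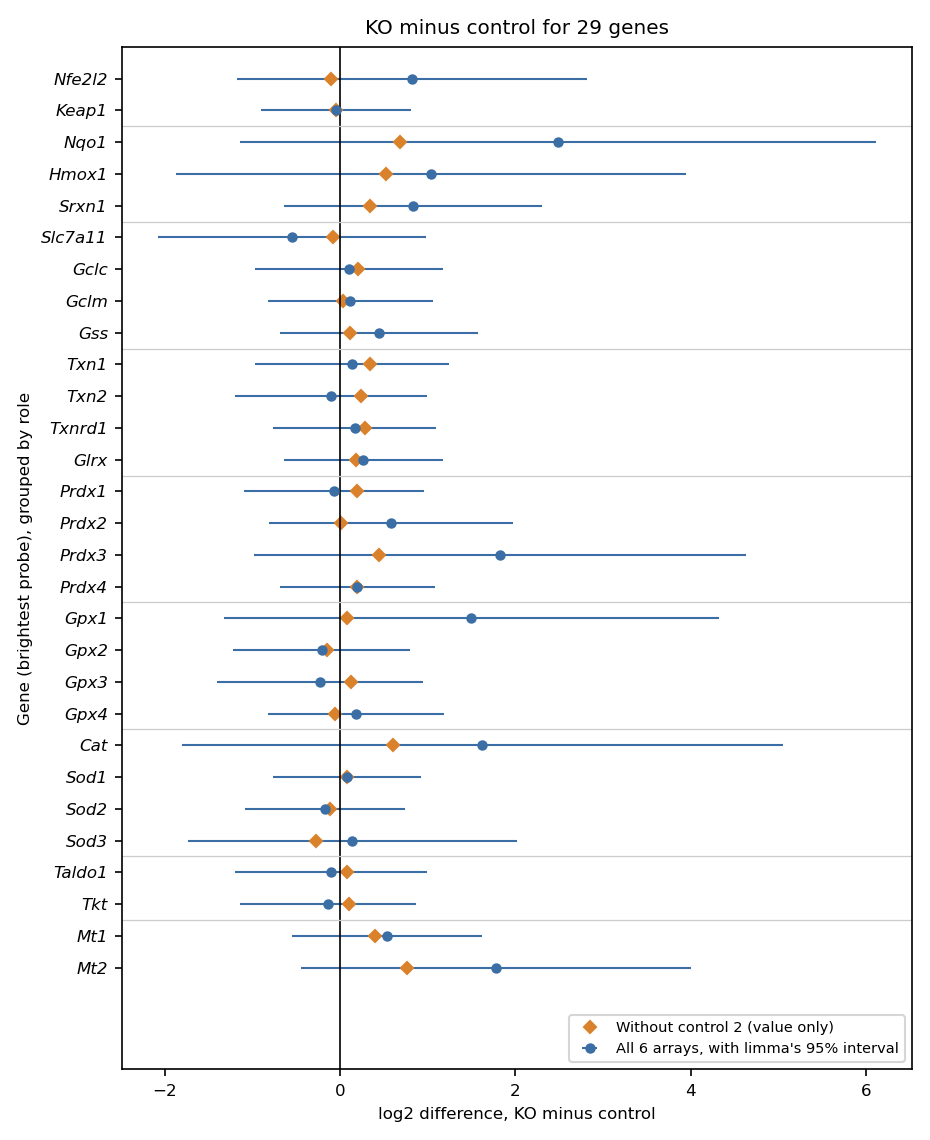
Log2 difference, KO minus control, of 29 genes. Blue points use all 6 arrays with limma's 95% interval as the bar, and orange diamonds are the same difference without control 2, with no interval. Every bar crosses 0, and the points of Nqo1, Prdx3, Gpx1, Cat and Mt2 move toward 0 without that array.

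Members with and without the response element core had similar medians. Of the 7 measured members that held it, 6 had the higher mean in KO, with a median difference of 0.17, or 0.20 without control 2. Of the 19 measured members with a window and no match, 11 were higher, with a median of 0.18, or 0.11 without control 2. These are descriptions of short lists, and a match is a run of letters and not a shown binding site.

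With control 2 included, the control samples varied more than the KO samples for most members. The SD over 3 arrays was smaller in KO than in control for 19 of 29 members. When control 2 was left out, this held for 12 of 29. Of the 25 further probes of 13 members that passed the filter, 16 had the same sign of difference as the brightest probe of their gene.

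Outside the members, the pathway was followed in 3 further lists. Of 16 NRF2 partners and regulators, 15 were measured, 5 with the higher mean in KO and 10 with the lower, with a median difference of -0.31, or -0.05 without control 2. At limma's adjusted threshold 0 passed, and at an unadjusted p under 0.05 there was 1 gene in each direction (1.66% of all features were higher and 2.64% lower at that p). Nfe2l3, a relative of NRF2, was near the floor, at 1.85 ± 0.53 in control and 0.25 ± 0.27 in KO (SD over 3 arrays each, limma adjusted p = 0.691). Mafk, a small MAF partner of NRF2, measured 3.14 and 1.77 on control 1 and control 3, had the floor value on control 2, and measured 3.42, 3.72 and 3.62 in KO (limma adjusted p = 0.940). Gsk3b, a kinase that promotes NRF2 degradation, differed by 0.68, or 0.36 without control 2, with overlapping groups, and Bach1, a repressor that competes for the same elements, by -0.69 (8.80 ± 0.57 in control and 8.11 ± 0.62 in KO, SD over 3 arrays each).

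Of 42 further NRF2 target genes, 39 were measured, 23 higher and 16 lower, with a median of 0.27, or 0.29 without control 2. None passed the adjusted threshold, and 3 were higher and 0 lower at an unadjusted p under 0.05 (1.66% and 2.64% of all features). Groups did not overlap for 4 higher (3.38% of all features) and 2 lower genes (5.31%). The 4 with the smallest p were Akr1b8, Ephx1, Abcc2 and Blvra. The aldo-keto reductase Akr1b8 and the epoxide hydrolase Ephx1 differed by 1.61 and 1.16, and by 1.56 and 1.07 without control 2. Abcc2, an efflux pump for glutathione conjugates, read 2.11 on control 1, the floor on the other control arrays, and 5.03, 1.69 and 3.46 in KO. Biliverdin reductase, Blvra, which acts after HMOX1 in haem breakdown, was lower on all 3 KO arrays, with control values of 9.04 to 10.00 and KO values of 8.28 to 8.55 (limma adjusted p = 0.940). Its difference was -0.98, and -0.67 without control 2.

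Of 40 further thiol and selenoprotein genes, 39 were measured, 14 higher and 25 lower, with a median of -0.21, or -0.03 without control 2. None passed, adjusted or unadjusted, and groups did not overlap for 1 higher and 2 lower genes (3.38% and 5.31% of all features). The smallest p belonged to Gpx8, a peroxidase of the endoplasmic reticulum, which measured 4.76 and 5.55 on control 1 and control 3, had the floor value on control 2, and measured 6.07, 6.85 and 6.13 in KO. Msrb2, a mitochondrial methionine sulfoxide reductase, differed by 1.10, and by 0.76 without control 2. Nnt, which makes NADPH in mitochondria, was near the floor and differed by -1.46, or -0.82 without KO 1, which was at the floor, and Sesn1, a sestrin, by -0.80, or -0.40 without control 2.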

How the data were processed

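Biotinylated cRNA made with the Ambion MessageAmp kit was read on Illumina bead arrays, per the labels' protocols, 1 array for each of 6 colon samples. The authors' deposited intensities, 45281 probes, are on a linear scale, share 1 median (3.82) and 1 maximum (16715), and have a floor of 1. No source used here names the software or the background correction. The number of arrays limits the precision. A further deposited table was not used, because its 12 value columns match no sample's labels.

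Intensities were log2 transformed with no offset. Probes with a mean above the 40th percentile (0.96) were kept, 27168 in all. The brightest probe stood for each gene, and unnamed probes stood alone, giving 18918 features. The platform annotation gave 1 symbol for 34885 probes, several for 18 and none for 10378. The groups were compared by limma's lmFit and eBayes (limma 3.58.1 under R 4.3.3). Tests were 2-sided, p-values were adjusted by Benjamini-Hochberg over the 18918 features, and the threshold was 0.05. Intervals are limma's 95% intervals. An exact permutation test of 3 against 3 cannot go below p = 0.1 and was not used. The fit was run on simulated data, drawn from a normal distribution with no floor and no array like control 2. That run therefore says nothing about how the fit handles either.

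The members, the 3 further lists and the marker lists were chosen with earlier results of these data known. The rule for naming took all 34 members, and the 4 genes of smallest p in each further list. Alternatives covered the filter, an offset of 16, normalization, probe choice, variance model, array weights, a replicate block and leaving out each array.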

Additional observations from a re-analysis of the deposited data

How the results depend on the processing

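Under 15 alternatives, 0 of the members and 0 genes of the further lists passed limma's adjusted threshold. The count of all features that passed was 0 in 14 of them and 11 with no filter on dim probes, where probes at the floor on most arrays enter. At an unadjusted p under 0.05 that alternative gave 1085 features and the others 307 to 1309, against 814. Among the 29 members, 1 passed that unadjusted p without control 1 (Mt2, 2.56), 1 without control 3 (Srxn1, 1.36), 1 without KO 3 (Cat, 3.02) and 0 under each other alternative. Of the 18918 features, 1183 passed it without control 1, 1309 without control 3 and 715 without KO 3. Each time this was a larger share than that of the members. Limma's lowest adjusted p for a member was 0.684. Leaving out 1 array gave 18 to 22 members with the higher mean in KO, and a median of 0.12 (without control 2) to 0.33 (without control 3). The other alternatives gave 18 to 23 members. The median of partners and regulators ranged from -0.41 to -0.054 when 1 array was left out (the latter without control 2), and was -0.16 with log2(intensity + 16), -0.13 with cyclic loess and -0.15 with array weights. That of further targets ranged from 0.10 (without control 1) to 0.36, and that of further thiol and selenoprotein genes from -0.33 to -0.031 (without control 2). With control 2 down-weighted to 0.199, the median of all features was -0.0016, against -0.09 with equal weights, and over the other alternatives it lay between -0.16 (without control 3) and -0.00087 (without control 2).

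Of 29 members, 15 kept their sign throughout and 14 turned at least once, in 28 of 433 values, and the cause was not tested. With array weights these were Txn2 (0.14), Prdx1 (0.13), Gpx3 (0.0028), Gpx4 (-0.047), Sod3 (-0.062), Taldo1 (0.0084) and Tkt (0.010). Keap1 turned to 0.013 with cyclic loess and 0.00083 when arrays were centred on the brighter features, and Prdx2 to -0.14 as a mean over its probes. When 1 array at a time was left out, control 2 turned Nfe2l2 (range over the arrays -0.10 to 1.37), Txn2 (-0.31 to 0.24), Prdx1 (-0.34 to 0.20), Gpx3 (-0.50 to 0.12), Gpx4 (-0.060 to 0.38), Sod3 (-0.47 to 0.87, also KO 2), Taldo1 (-0.42 to 0.079, also control 3 and KO 1) and Tkt (-0.31 to 0.10, also KO 2). Control 1 turned Gclc (-0.22 to 0.33) and Txn1 (-0.18 to 0.34, also KO 2), KO 1 turned Gpx2 (-0.41 to 0.071), and KO 2 turned Keap1 (-0.12 to 0.028) and Gclm (-0.041 to 0.27).

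With the replicate block, 840 features had an unadjusted p under 0.05 and 0 passed after adjustment, and the members' median stayed at 0.17. Deviations of same-numbered samples correlated at 0.16, -0.09 and 0.04, and those of unlike-numbered samples at -0.21 to 0.13. Pancreatic markers were lowest on control 3 and KO 3, whereas small intestinal markers averaged lowest on control 1 and highest on KO 1. The main fit did not take the numbers as pairs, and whether same-numbered samples shared a batch or dissection was not tested. Background correction of the unnormalized table was not run, because its columns could not be mapped to samples. The narrowest of the members' 95% intervals, that of Sod1, ran from -0.77 to 0.93, and no size of change seen in a member passed the adjusted threshold with 3 arrays a group.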
